A study of Mus musculus with 2 samples.

Results

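The 10 circadian clock genes Arntl, Npas2, Clock, Per1, Per2, Cry1, Nr1d1, Nr1d2, Dbp and Tef were followed in single-barcode RNA of mouse liver. They were taken by gene symbol and make up 10 of the 32287 features that were counted. The question was whether the livers behind the libraries stood at different points of the daily cycle, since a difference in clock phase alone can shift many metabolic genes of the liver.

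Both libraries came from wild-type C57BL/6J mice that had been infected at 4 weeks of age with adeno-associated virus (AAV). The virus carried a short hairpin against Bicd2, an adaptor of the dynein motor, in the group called shBicd2, and a scrambled hairpin in the group called scramble. Every mouse of both groups was given 15 mg/kg of concanavalin A, a plant lectin that drives T cells to injure the liver, into a vein 3 weeks later, and livers were taken 6 hours after that. Each group had 1 library. The sources used here give neither the hour of the day at collection, nor the number of mice per library, nor the promoter in the virus, so hairpin, mouse, hour of collection and library preparation cannot be told apart. No difference below has a replicate check, none was tested, and every interval is a 95% interval that covers counting error only.

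The mammalian clock is a loop of transcription. CLOCK or its paralog NPAS2 pairs with BMAL1, the product of Arntl, and the pair binds E-box motifs to switch on the Per and Cry genes, Nr1d1 and Nr1d2, and Dbp and Tef. PER and CRY proteins then block the pair, while the nuclear receptors REV-ERB alpha and beta, encoded by Nr1d1 and Nr1d2, bind RORE motifs and repress Arntl and Npas2. In mouse liver, RNA of Arntl and Npas2 therefore peaks in antiphase to Nr1d1 and Dbp, and Per2 peaks after them, whereas Per1 and Per2 also answer to glucocorticoids and other acute signals.

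The shBicd2-labelled library held 5624055 unique molecular identifiers (UMIs, counted transcript molecules) in 3038 barcodes, and the scramble-labelled library held 5086306 UMIs in 2805 barcodes, with 3 barcode sequences found in both. After filtering, 2941 and 2729 barcodes were left, with medians of 1498 and 1502 UMIs. Levels are UMIs per 1000000 UMIs of the summed barcodes (CPM) and are not divided by gene length. How well they rank genes by RNA abundance was not tested. Bicd2 itself had 107 UMIs, or 19.7 CPM, in the shBicd2-labelled library and 80 UMIs, or 16.4 CPM, in the scramble-labelled library. Its ratio of 1.21 (0.896 to 1.63) did not show the loss that the label implies. In the main population of barcodes, described further on, its ratio was 1.39 (1.01 to 1.92), from 103 and 66 UMIs. Directions below therefore refer to the labels of the libraries only. EGFP, a reporter in the reference that the labels assign to no virus, stood at 894 and 69.3 CPM. The nuclear RNA Neat1 was at 45063 and 65836 CPM and Malat1 at 26792 and 36453 CPM, against 1721 and 1072 CPM for the hepatocyte marker Alb. Ratios divide the shBicd2-labelled library by the scramble-labelled library.

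The motifs through which the loop acts were looked up in promoters from RefSeq (GRCm38.p6, 250 bases before to 50 after each start), where 9 of the 10 genes matched 14 promoters. Per2 matched none, so no Per2 promoter was searched and its absence below is not a negative result. The E-box searched was CACGTG, the RORE core was TAGGTCA, with 3 bases of any kind before it, and the D-box, bound by DBP and TEF, was TTANNTAA, each on both strands. The stretches below are shown because they hold the members' own matches, with the motif in capitals and the gene's strand read 5′ to 3′.
Per1 E-box, chr11:69098771-69098800, plus strand: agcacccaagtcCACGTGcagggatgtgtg
Cry1 E-box, chr10:85185097-85185126, minus strand: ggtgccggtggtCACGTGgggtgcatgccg
Tef E-box, chr15:81802534-81802563, plus strand: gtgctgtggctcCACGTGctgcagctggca
Tef second-promoter E-box, chr15:81811264-81811293, plus strand: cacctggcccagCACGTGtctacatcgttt
Tef D-box, chr15:81802488-81802517, plus strand: cctttgcaaagTTAGATAAcaggccgggtt
Arntl RORE, chr7:113207528-113207557, plus strand: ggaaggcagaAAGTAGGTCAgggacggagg
The E-box stood in 4 of the 14 promoters and in 7.15% of all 32851 promoters of the table. The RORE was in 1 of the 14 and in 2.58% of all, and the D-box was in 1 of the 14 and in 6% of all. The Per1 match began 166 bases before the start, the Cry1 match 60 bases before it and the Tef matches 127 and 138 bases before theirs, while the Arntl RORE began 28 bases after the start. A match is a description of these letters. The genes with an E-box here, Per1, Cry1 and Tef, did not share a ratio, as the values below show.

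The measured activators, Arntl and Clock, were higher in the shBicd2-labelled library over all barcodes. Arntl (ENSMUSG00000055116, GRCm38 chromosome 7, 113207465 to 113314126, plus strand) was counted with 117 UMIs in the shBicd2-labelled library and 48 in the scramble-labelled library, or 21.6 and 9.81 CPM. That is a ratio of 2.20 (1.56 to 3.15), and the counting intervals of the levels do not overlap. Clock (ENSMUSG00000029238, chromosome 5, 76209868 to 76304792, minus strand), its partner, had 467 and 273 UMIs, or 86.2 and 55.8 CPM, a ratio of 1.54 (1.33 to 1.80). Without cluster 1 of the barcodes, described further on, Clock came to 1.04 (0.856 to 1.25) and Arntl to 1.46 (0.952 to 2.25), and Clock came to 1.31 (1.12 to 1.54) without cluster 3. Npas2 (ENSMUSG00000026077, chromosome 1, 39193731 to 39363236, plus strand), the paralog of Clock, had 6 and 1 UMIs, under the minimum of 10 used for every count below. Its ratio of 5.42 (0.657 to 249) leaves its direction undetermined at this depth.

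The repressors were higher too, and Per2 differed by the widest margin of the measured members. Per2 (ENSMUSG00000055866, chromosome 1, 91415982 to 91459324, minus strand) had 550 UMIs in the shBicd2-labelled library and 119 in the scramble-labelled library, or 102 and 24.3 CPM. Its ratio was 4.17 (3.42 to 5.13). Per1 (ENSMUSG00000020893, chromosome 11, 69095217 to 69109960, plus strand) had 2071 and 1173 UMIs, or 382 and 240 CPM, a ratio of 1.59 (1.48 to 1.71) that lies wholly under the interval of Per2. The paralogs, which share much of their function as PER proteins, therefore stood apart. Cry1 (ENSMUSG00000020038, chromosome 10, 85131700 to 85185064, minus strand), the partner of the PER proteins in repression, had 62 and 25 UMIs, or 11.4 and 5.11 CPM, a ratio of 2.24 (1.39 to 3.72).

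The REV-ERB genes differed from each other. Nr1d1 (ENSMUSG00000020889, chromosome 11, 98767932 to 98775333, minus strand) had 2731 UMIs in the shBicd2-labelled library and 1169 in the scramble-labelled library, or 504 and 239 CPM, a ratio of 2.11 (1.97 to 2.26). Nr1d2 (ENSMUSG00000021775, chromosome 14, 18204054 to 18239127, minus strand) had 1251 and 1197 UMIs, or 231 and 245 CPM, a ratio of 0.944 (0.871 to 1.02). Nr1d1 was thus higher while Nr1d2 lay within counting error of equality, although both encode REV-ERB receptors. The higher Nr1d1 turned to a ratio of 0.760 (0.690 to 0.836) without 1 cluster of barcodes, described further on. The last 1075 bases of Nr1d1 overlap Thra, a thyroid hormone receptor gene on the opposite strand, which had 8.86 and 4.09 CPM, a ratio of 2.17. The sources used here do not say whether counting used strand, and the part of that stretch in the counts was not tested. The same holds for Dbp with Sphk2 and for Arntl and Tef with antisense genes.

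The proline and acidic amino acid-rich (PAR) bZIP genes, output regulators that bind D-boxes, split in the same way. Dbp (ENSMUSG00000059824, chromosome 7, 45705088 to 45710203, plus strand) had 231 and 107 UMIs, or 42.6 and 21.9 CPM, a ratio of 1.95 (1.54 to 2.48) that came to 0.921 (0.678 to 1.25) without the same cluster. Tef (ENSMUSG00000022389, chromosome 15, 81802421 to 81826863, plus strand) had 842 and 771 UMIs, or 155 and 158 CPM, a ratio of 0.986 (0.893 to 1.09).

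Called here is a ratio of at least 1.5 in either direction whose interval excludes 1, with at least 10 UMIs over both libraries. By that rule 7 of the 9 measured members were higher in the shBicd2-labelled library and 0 were lower. Over all 12942 genes with 10 UMIs, 19.1% were called higher and 8.44% lower, and these shares were 20.5% and 9.37% at a minimum of 50 UMIs and 19.6% and 9.66% at 100. The median log2 ratio was 0.96 over the 9 members and 0.15 over all those genes. Higher levels in the shBicd2-labelled library were thus common in the whole table. Of all calls 69.4% were higher, a split that came to 51.0% once the libraries were scaled by TMM (a trimmed mean that centres the bulk of the genes), which lowered every log2 ratio by 0.16. Under TMM 5 members were called, against 13.7% of all genes called higher and 13.2% lower, because Clock at 1.38 and Per1 at 1.43 fell short of 1.5-fold.

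The order of the members also differed. In the shBicd2-labelled library Nr1d1 led with 32.8% of the 8328 UMIs of the 10 genes, followed by Per1 with 24.9%, Nr1d2 with 15.0% and Tef with 10.1%. In the scramble-labelled library Nr1d2, Per1 and Nr1d1 had 1197, 1173 and 1169 UMIs of 4883 and could not be ranked beyond counting error. Per2 and Clock stood in opposite order: Per2 had more UMIs than Clock in the shBicd2-labelled library, while Clock had more than Per2 in the scramble-labelled library. Dbp, Arntl, Cry1 and Npas2 followed in that order in both, and Per2 and Dbp could not be ranked in the scramble-labelled library.

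**Figure D1:**
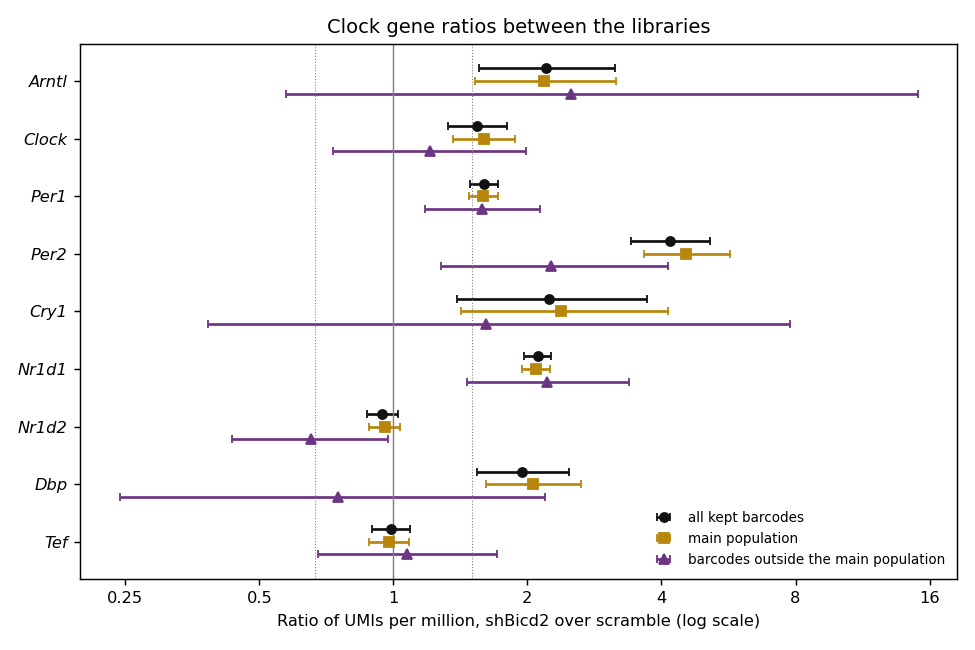
Ratio of CPM, shBicd2-labelled library over scramble-labelled library (log axis), for the 9 measured members over all kept barcodes (black circles), in the main population (gold squares) and outside it (purple triangles), with exact 95% counting intervals. Dotted lines mark 1.5-fold in either direction; 7 of 9 members lie past the upper line in black and gold, and Nr1d2 and Tef lie on 1.

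The share of barcodes with a UMI gave the same directions as the levels for the genes named here. Per2 was seen in 15.4% (14.1% to 16.8%) of barcodes of the shBicd2-labelled library and 3.96% (3.26% to 4.76%) of those of the scramble-labelled library. With every barcode cut down at random to 1000 UMIs, for which 851 and 754 barcodes were too shallow, the Per2 shares were 9.38% and 1.87%. Thinned shares were 31.6% and 21.0% for Per1, 26.8% and 18.2% for Nr1d1, 18.9% and 20.9% for Nr1d2, and 2.78% and 1.06% for Arntl. Per2 therefore differed in how many barcodes carried it and not through a few barcodes with many UMIs. In the monocyte/macrophage-like cluster, with medians of 765 and 731 UMIs, Per2 was in 7.69% (2.88% to 15.99%) and 1.33% (0.0338% to 7.21%) of barcodes, so barcodes of another cell type carried Per2 UMIs too, and the part of free RNA in them was not tested.

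A phase difference can move genes of opposite phase in opposite directions, which pair ratios show without reference to library size. Arntl over Dbp, genes of opposite phase, was 0.506 in the shBicd2-labelled library and 0.449 in the scramble-labelled library, a ratio of ratios of 1.13 (0.739 to 1.74). Arntl over Nr1d1 was 0.0428 and 0.0411, a ratio of ratios of 1.04 (0.734 to 1.503). Cry1 over Dbp gave 1.15 (0.668 to 2.02). Over all barcodes, a shift of one against the other was therefore not detectable within those intervals. That value near 1 depended on which clusters of barcodes, described further on, were counted. Without cluster 4, Arntl over Nr1d1 gave 3.40 (2.34 to 5.01), Arntl over Dbp 2.81 (1.73 to 4.56) and Cry1 over Dbp 2.17 (1.15 to 4.14). Arntl over Nr1d1 gave 0.454 (0.293 to 0.703) without cluster 1, 1.74 (1.11 to 2.82) without cluster 2 and 0.456 (0.312 to 0.678) without cluster 3. Arntl over Dbp gave 0.520 (0.316 to 0.857), 1.84 (1.10 to 3.16) and 0.682 (0.420 to 1.12) without clusters 1, 2 and 3. The opposed pairs thus lay on either side of 1 with the clusters left out, and these data give no direction for them.

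Over all barcodes, the pairs that include Per2, and Dbp over Tef and Nr1d1 over Nr1d2, gave intervals that exclude 1. Clock over Per2 was 0.849 in the shBicd2-labelled library and 2.29 in the scramble-labelled library, a ratio of ratios of 0.370 (0.286 to 0.478). Arntl over Per2 gave 0.527 (0.352 to 0.798) and Per1 over Per2 gave 0.382 (0.307 to 0.473). Dbp over Tef was 0.274 and 0.139, a ratio of ratios of 1.98 (1.53 to 2.56), and Nr1d1 over Nr1d2 was 2.18 and 0.977, or 2.24 (2.01 to 2.49). Without cluster 4 those values came to 0.876 (0.633 to 1.21) for Dbp over Tef and 1.11 (0.972 to 1.28) for Nr1d1 over Nr1d2. Both intervals then spanned 1. That cluster held 578 barcodes of the shBicd2-labelled library and 26 of the scramble-labelled library, so leaving it out changed mainly the former. Clock, Arntl and Per1 over Per2 stayed below 1 without cluster 4, at 0.350, 0.491 and 0.301. Those 5 are of 10 pairs computed. The remaining pairs, Npas2 over Nr1d1 at 2.57 (0.311 to 118) and Npas2 over Clock at 3.51 (0.422 to 162), rest on 7 Npas2 UMIs and give no direction.

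**Figure D2:**
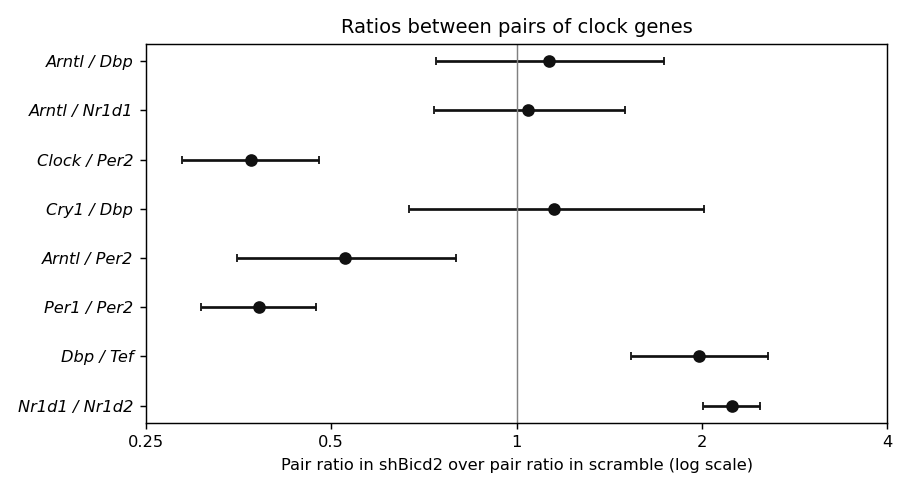
Ratio of UMIs of one clock gene to another in the shBicd2-labelled library, divided by the same ratio in the scramble-labelled library (log axis), with exact conditional 95% intervals for counting error. Values are over all kept barcodes: pairs of Arntl or Cry1 with Dbp or Nr1d1 span 1, pairs with Per2 as denominator lie below 1, and Dbp over Tef and Nr1d1 over Nr1d2 lie near 2, though not without cluster 4.

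Barcodes were then split by cluster to see which of them carried the differences. Of 14 clusters 9 raised no more than 2 markers of any cell type other than hepatocytes and are called the main population, with 2641 barcodes of the shBicd2-labelled library and 2424 of the scramble-labelled library. All 10 hepatocyte markers were found in every cluster, with summed levels of 7968 to 32635 CPM in the main population and 6379 to 11300 CPM outside it, so hepatocyte RNA was present in every cluster. None of the 26 clock and related genes was among the variable genes that defined the clusters. In the main population 7 of 9 members were again called higher and 0 lower, against 20.1% and 8.81% of all genes there. Per2 had 101 and 22.1 CPM, a ratio of 4.54 (3.66 to 5.69), and Nr1d1 had 524 and 251 CPM, a ratio of 2.09 (1.95 to 2.24).

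Within the main population the members fell into sets with high levels in different clusters. In the shBicd2-labelled library Nr1d1 stood at 1336 CPM in cluster 4, against 80.7 CPM in cluster 1, a 16.6-fold range over the 7 clusters with at least 50 barcodes. Dbp, at 100 CPM (85.0 to 117), and Nr1d2, at 396 CPM (366 to 429), also had their highest values in cluster 4. The interval of Nr1d2 overlapped those of cluster 6, at 373 CPM (332 to 419), and cluster 3, at 293 CPM (222 to 378). That of Dbp overlapped the interval of cluster 2, where Dbp had 1 UMI. Cluster 4 held 28.2% of the UMIs of that library but 74.7% of its Nr1d1 UMIs, 66.2% of its Dbp UMIs and 48.4% of its Nr1d2 UMIs. Its leading genes were EGFP, the heat shock genes Hspb1, Hspa1a, Hspa1b and Hsp90aa1, and histone genes. Cluster 1 was led by G0s2, Plin2 and other lipid and enzyme genes, with 4 of 7 periportal markers raised. It had Per2 at 164 CPM (147 to 182) and Clock at 131 CPM (116 to 147). Those intervals overlapped the ones of clusters 2 and 13, at 157 and 137 CPM for Per2 and 98.2 and 122 CPM for Clock. The highest cluster of either gene was therefore not determined. Cluster 1 held 38.9% of the UMIs of the library and 62.7% of its Per2 UMIs, 59.1% of its Clock UMIs and 60.7% of its Arntl UMIs.

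The scramble-labelled library had a like split in other clusters. There Nr1d1 was highest in cluster 3, led by the interferon-induced genes Ifit1, Ifit2, Ifit3 and Rsad2, at 547 CPM. Its lowest value was 80.3 CPM (60.3 to 105) in cluster 7, led by pericentral genes, a 6.81-fold range over 5 clusters. That interval overlapped the one of cluster 2, at 90.1 CPM (75.7 to 106). Nr1d2, at 366 CPM, and Dbp, at 38.2 CPM, also had their highest values in cluster 3. The interval of Nr1d2 overlapped that of cluster 8, and that of Dbp overlapped those of clusters 5, 7 and 8. Per2 at 5.14 CPM, Clock at 26.4 CPM and Tef at 111 CPM were lowest in cluster 3. The intervals of Clock and Tef overlapped those of cluster 5, and that of Clock also overlapped that of cluster 8. Arntl was at 5.14 CPM in cluster 3 from 7 UMIs. It was at 5.25 and 5.58 CPM in clusters 5 and 8 from 2 UMIs each, so its lowest cluster was not determined. The cluster held 63.7% of the Nr1d1 UMIs of that library and 5.88% of its Per2 UMIs, with 27.9% of all its UMIs. Per1 hardly varied there, from 231 to 257 CPM, while in the shBicd2-labelled library it ran from 205 to 439 CPM.

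**Figure D3:**
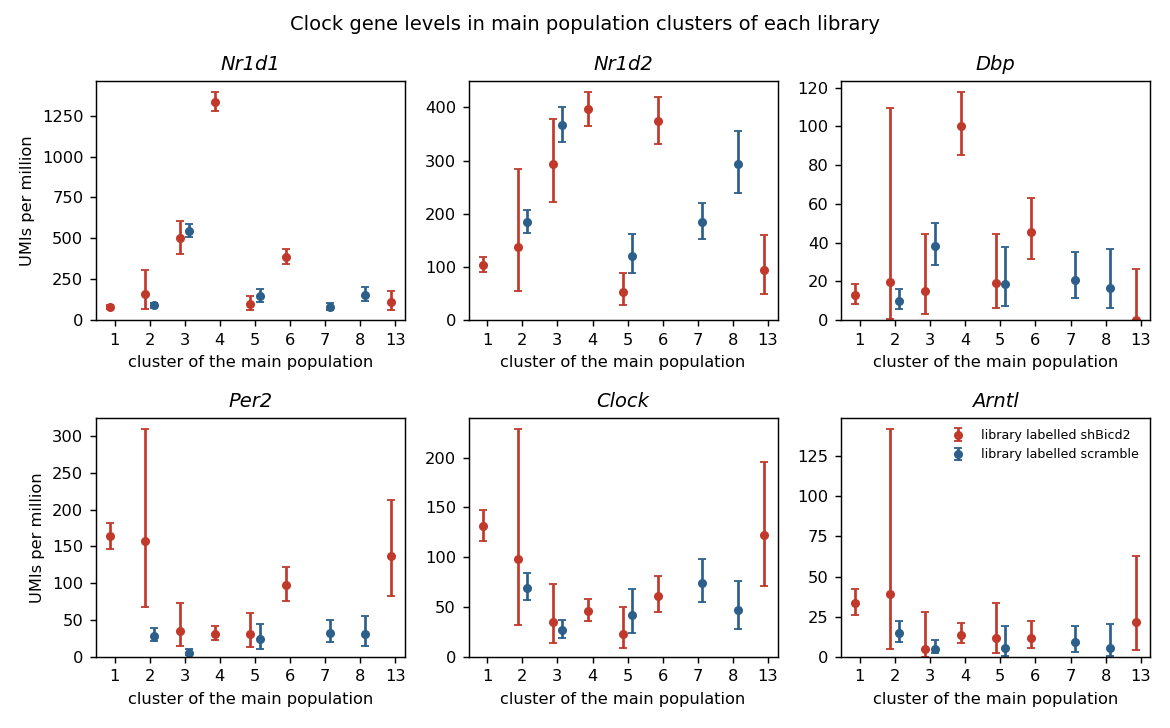
Levels of 6 clock genes in CPM in each main population cluster with at least 50 barcodes of the shBicd2-labelled library (red) or of the scramble-labelled library (blue), with exact Poisson 95% intervals. Nr1d1, Nr1d2 and Dbp have their highest values in cluster 4 (red) and cluster 3 (blue), where Per2 is low. For Nr1d2 and Dbp the intervals of some other clusters overlap these. Clusters 1, 4, 6, 7, 8 and 13 are each shown for 1 library because the other had fewer barcodes.

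Most clusters belonged to 1 library. Cluster 4 held 578 barcodes of the shBicd2-labelled library and 26 of the scramble-labelled library, and cluster 1 held 1203 and 29. Which clusters were present and which library they came from therefore cannot be told apart for most of the main population. When cluster 4 was left out of both libraries, the ratio of Nr1d1 turned to 0.760 (0.690 to 0.836) and that of Dbp to 0.921 (0.678 to 1.25), while Per2 stood at 5.27 and Clock at 1.84. When cluster 1 was left out, Per2 kept a ratio of 2.61 (2.07 to 3.31), Clock came to 1.04 (0.856 to 1.25), Arntl to 1.46 (0.952 to 2.25) and Nr1d1 to 3.23. Without cluster 3, which held 94 and 572 barcodes, Nr1d1 came to 4.20, Dbp to 2.80 and Per2 to 3.28. Leaving out cluster 4 or 1 thus took barcodes almost wholly from the shBicd2-labelled library, and leaving out cluster 3 took them mainly from the scramble-labelled library. The higher Nr1d1 and Dbp of the shBicd2-labelled library were not seen without cluster 4. Clock and Arntl were not called without cluster 1, while the higher Per2 was seen without either cluster. Because each leave-out changed mainly 1 library, it does not assign a difference to a cluster.

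Clusters 2, 3 and 5 of the main population had at least 50 barcodes in each library. In cluster 2, with 54 and 969 barcodes, Per2 was at 157 and 28.7 CPM, a ratio of 5.47 (2.22 to 11.7) from 8 and 44 UMIs. In cluster 3, with 94 and 572 barcodes, Per2 was at 35.3 and 5.14 CPM, a ratio of 6.88 (2.06 to 23.0) from 7 and 7 UMIs. In cluster 5, with 223 and 284 barcodes and a median of 5.61% mitochondrial UMIs, Per2 was at 30.4 and 23.6 CPM, a ratio of 1.29 (0.432 to 3.76). Per2 was thus the 1 member called higher in clusters 2 and 3, of 8 measured in each, and was within counting error of 1 in cluster 5. Of all genes, 6.43% were called higher and 2.44% lower in cluster 2, and 4.89% and 6.8% in cluster 3.

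Nr1d1 did not follow Per2 in those clusters. Its ratio was 1.74 in cluster 2, 0.914 in cluster 3 and 0.672 in cluster 5, none of them called. In cluster 5, 0 of 7 members were called higher and 2 lower, against 10.9% and 16.6% of all genes there. Those were Nr1d2, at 53.2 and 121 CPM with a ratio of 0.441, and Tef, at 68.4 and 147 CPM with a ratio of 0.465. Set at equal weight, these 3 clusters gave ratios of 0.964 for Nr1d1 and 0.811 for Dbp, and Per2 was the 1 member called of 9 measured. The share of all genes called at equal weight was not computed, so that count has nothing to be set against.

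Barcodes with an EGFP UMI gave a comparison inside each library. They made up 29.3% of the main population of the shBicd2-labelled library and 6.56% of that of the scramble-labelled library. In the shBicd2-labelled library Nr1d1 was at 895 CPM in EGFP-bearing and 302 CPM in EGFP-free barcodes, a ratio of 2.96 (2.73 to 3.21). In the scramble-labelled library it was at 581 and 217 CPM, a ratio of 2.68 (2.32 to 3.09). Nr1d1 was thus higher beside EGFP in both libraries, whichever hairpin the label names. Nr1d2 gave ratios of 1.77 and 1.67 and Dbp gave 2.40 (1.83 to 3.17) and 1.91 (1.04 to 3.29) for the libraries labelled shBicd2 and scramble.

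Per2 ran the other way. It was at 54.3 CPM in EGFP-bearing and 128 CPM in EGFP-free barcodes of the shBicd2-labelled library, a ratio of 0.424 (0.338 to 0.527). In the scramble-labelled library it was at 7.08 and 23.7 CPM, a ratio of 0.299 (0.0606 to 0.900) that rests on 3 UMIs in EGFP-bearing barcodes. Arntl gave 0.544 (0.339 to 0.849) and 0.220 (0.00544 to 1.29), and Per1 gave 1.03 and 0.732. EGFP-bearing barcodes were deeper, with medians of 2074 against 1432.5 UMIs in the shBicd2-labelled library and 2264 against 1537 in the scramble-labelled library, and the part of depth in these ratios was not tested. Between the libraries, EGFP-free barcodes of all clusters gave ratios of 1.40 (1.28 to 1.53) for Nr1d1, 1.37 (1.02 to 1.84) for Dbp, 4.88 for Per2 and 2.43 for Arntl, so Nr1d1 and Dbp were no longer called there.

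**Figure D4:**
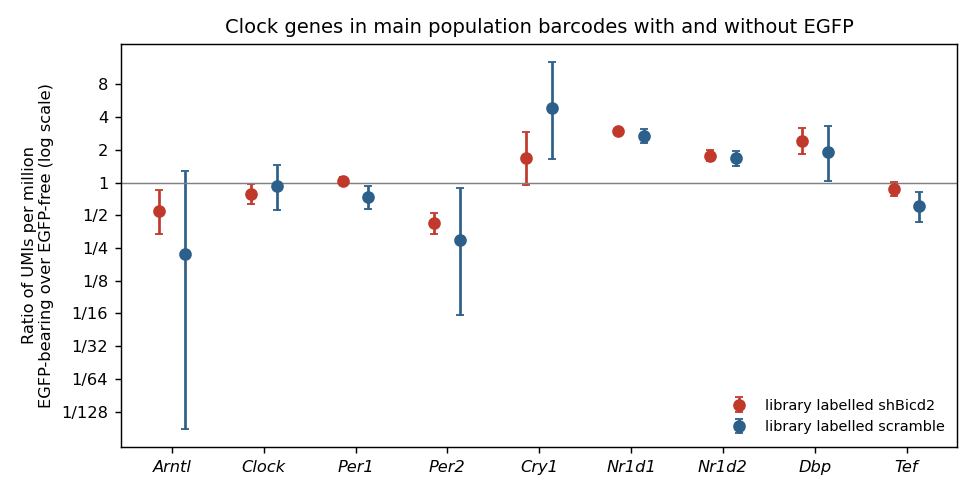
Ratio of CPM in EGFP-bearing over EGFP-free barcodes of the main population (log axis), inside the shBicd2-labelled library (red) and the scramble-labelled library (blue), with exact 95% counting intervals. Nr1d1, Nr1d2 and Dbp lie above 1 and Per2 and Arntl below 1 in both libraries, though the interval of Arntl in the scramble-labelled library spans 1.

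Outside the main population fewer members were called. Per1, at 334 and 212 CPM, Per2, at 115 and 50.9 CPM, and Nr1d1, at 213 and 96.4 CPM, were called higher, with ratios of 1.58 (1.18 to 2.13), 2.26 (1.28 to 4.14) and 2.21 (1.47 to 3.39). Nr1d2, at 121 and 185 CPM, was called lower at 0.655 (0.435 to 0.974), and the other 5 measured members were not called. Of all genes there 10.3% were called higher and 6.45% lower. Over all barcodes, summed neutrophil markers stood at 378 and 67.3 CPM and erythroid markers at 691 and 234 CPM, and their part in these ratios was not tested.

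By cluster, cluster 11, with 7 of 8 neutrophil and 4 of 8 endothelial markers raised and hence no name, had Per2 at 146 and 23.2 CPM, a ratio of 6.29 (1.46 to 56.7), and Nr1d1 at 273 and 92.8 CPM, a ratio of 2.94 (1.30 to 7.46). Those were 2 of 6 measured members, against 9.26% of all genes called higher and 6.6% lower. Cluster 9, with B cell and erythroid markers raised together, had Per1 called higher at 2.45 and Nr1d1 at 1.98, and Nr1d2 called lower at 0.346, against 6.55% and 6.92% of all genes. In the monocyte/macrophage-like cluster 10, which raised 8 of 10 markers, none of the 4 measured members was called, while 8.72% of all genes were called higher and 7.58% lower. No member had more than 36 UMIs per library in these 3 clusters.

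Among the other genes of the clock, 15 of the 16 listed were measured and 1 was called higher and 1 lower, or 4 lower under TMM. Of all genes 19.1% were called higher and 8.44% lower, or 13.7% and 13.2% under TMM. Nfil3, a repressor that competes with DBP and TEF for D-boxes, was at 105 and 53.4 CPM, a ratio of 1.97 (1.70 to 2.29). Bhlhe41, a repressor acting on E-boxes, was at 73.3 and 114 CPM, a ratio of 0.642 (0.563 to 0.732). Its paralog Bhlhe40 had the highest counts of the list, 853 and 963 CPM, and a ratio of 0.885 (0.850 to 0.922). Cry2 and Per3, the further members of the repressor families, had ratios of 0.734 (0.665 to 0.809) and 1.39 (1.07 to 1.81). Rora, an activator at ROREs, had a ratio of 1.14 (1.04 to 1.26), Ciart, a repressor of the CLOCK pair, had 1.38, and the kinase genes Csnk1d and Csnk1e, whose products mark PER proteins for decay, had 1.41 and 1.44. Rorb had 0 UMIs in both libraries. The median log2 ratio of the list was 0.38, beside 0.96 for the members and 0.15 for all genes.

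Of 12 rhythmic output genes of the liver, 11 were measured, with a median log2 ratio of 0.28. By the same rule 5 were called higher and 1 lower, against 19.1% and 8.44% of all genes. Under TMM 3 were called higher and 3 lower, against 13.7% and 13.2% of all genes. Por, the electron donor of cytochrome P450 enzymes, was at 378 and 237 CPM, a ratio of 1.59 (1.48 to 1.71), and was called. The others called higher, named after their values were seen, were Wee1 at 2.10, Lonrf3 at 3.24, Gys2 at 1.76 and Pnpla2 at 1.62, and Elovl3 was called lower at 0.579. Alas1, which starts heme synthesis, was at 284 and 422 CPM, a ratio of 0.674 (0.630 to 0.720), and Nampt, which makes an NAD precursor, was at 231 and 340 CPM, a ratio of 0.680 (0.631 to 0.732). Both lay just short of the fold for a call. Noct, a phosphatase gene under clock control, had 1.22 (1.11 to 1.33). Cyp7a1, the rate-limiting enzyme of bile acid synthesis, had 1 UMI in each library and could not be compared.

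Values of genes that respond to hormones and heat were set beside the clock genes, since Per1 and Per2 answer to both. Of 10 glucocorticoid-responsive genes, Per1 was the 1 called higher, though not under TMM, and 2 were called lower. Over all genes 19.1% were called higher and 8.44% lower. The median log2 ratio of the list was 0.29. Tat, Mt1, Mt2 and Dusp1, those with the most UMIs, had ratios of 1.499, 1.38, 1.11 and 0.970, and Tat lay just under the fold for a call. The called-lower pair, named after its values were seen, was Fkbp5, at 288 and 570 CPM with a ratio of 0.505 (0.475 to 0.538), and Sgk1, at 23.8 and 67.3 CPM with a ratio of 0.354 (0.287 to 0.435). Both are induced by glucocorticoid receptor in many tissues. Of the 10 ratios of the list, 6 were above 1, so the list did not move in 1 direction.

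Of 8 temperature-responsive genes, 5 were called higher and 0 lower, against 19.1% and 8.44% of all genes, with a median log2 ratio of 1.26. Hsp90aa1 was at 841 and 255 CPM, a ratio of 3.29 (3.09 to 3.51), and Hspa1b was at 688 and 231 CPM, a ratio of 2.98 (2.79 to 3.19). Hspa1a at 3.56, Dnajb1 at 2.54 and Cirbp, a cold-induced gene, at 2.27 were called too and are named after their values were seen. Hspa8, a constitutive chaperone gene, had 1.03, and Rbm3, induced by cold, had 0.819 (0.739 to 0.907). Without cluster 4, which the heat shock genes lead, 1 of the 8 was called higher and 4 lower, against 25.4% of all genes called higher and 7.01% lower there. Nr1d1 and Dbp turned with the same cluster, as given above, and the part of the heat shock signal in their levels was not tested.

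Genes whose level followed a member most closely were taken over 19 units, each a cluster in 1 library with at least 50 barcodes, among 3268 genes with at least 500 UMIs. Nr1d1 ran most like Tgif1, Gm49774 and Rnf11, with Pearson r of 0.907, 0.895 and 0.895 on the log2(CPM + 10) scale. Clock ran most like Top3b, Zfr and Trip12 at 0.897, 0.873 and 0.861, Per1 most like Stk38l, Vcl and Bag6 at 0.851, 0.777 and 0.777, and Tef most like Agxt2, Hook2 and Phf1 at 0.838, 0.818 and 0.792. Among the members themselves Clock and Per2 had r of 0.68, Per1 and Nr1d1 0.57, Nr1d1 and Nr1d2 0.48 and Per1 and Per2 0.46. Clock and Nr1d1 had -0.42 and Per2 and Nr1d2 -0.37, while Per2 and Nr1d1 had -0.03. The units share libraries, depth and free RNA, so these values describe the pattern over clusters only.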

How the data were processed

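The deposited values are counts of UMIs per gene and barcode, not normalized, from 10x 3′ libraries, 1 per group, per the labels' protocols. The matrices were written by Cell Ranger 6.1.2, per the file headers. The submitters' processing notes name Cell Ranger 6.0.1, Seurat 4.0.3 and the build mm10. The sources used here do not say whether reads in introns were counted or how tissue was dissociated. No deposited barcode has under 500 UMIs.

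Barcodes with fewer than 200 genes or more than 25% mitochondrial UMIs were dropped. Scrublet in scanpy 1.11.5 scored doublets, and the top 0.8% per 1000 barcodes of each library were removed (73 and 62 barcodes of the libraries labelled shBicd2 and scramble, besides 24 and 14 that failed the filter). With the clock and wider clock genes left out, 2000 variable genes, 30 principal components (scikit-learn 1.9.0) and 15 neighbours were clustered with leidenalg 0.10.2 at resolution 1.0. A marker counted as raised at 1 log2 unit or more over the other barcodes and in at least 3% of the cluster. A cluster with 3 or more raised markers of another class was put outside the main population, and one with such sets of more than 1 class was left unnamed.

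UMIs were summed and divided by the total of the library or cluster (Python 3.11.15, numpy 2.4.6, scipy 1.17.1, pandas 2.3.3). Intervals at 95% are exact Poisson for levels, Clopper-Pearson for shares, and exact conditional for ratios. They cover counting error only, since PCR, animal and preparation add to it. No p-value was computed, as barcodes are not replicates. Log2 ratios had 0.5 UMI added to each sum. TMM factors came from edgeR 4.0.16 in R 4.3.3. The interval and call calculations were tested on simulated counts.

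The members, gene lists and tests were chosen with earlier results of these data known. The genes named are the 10 members, the measured genes of the wider clock list, up to 4 genes with the most UMIs of each other list, Bicd2 and EGFP, and for the member with the most UMIs in each of 4 roles the 3 genes most like it. The values of 1 gene of the wider clock list are not reported here. Thra, Alb, Malat1, Neat1 and the leading genes of clusters were added as context. Coordinates of genes are from GENCODE on GRCm38, and promoter sequences from RefSeq.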

Additional observations from a re-analysis of the deposited data

How the results depend on the processing

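No paired analysis was possible because each group has 1 library, and for the same reason no replicate could be left out. All results were recomputed under 33 alternatives, of which 13 were added after seeing the data (each cluster outside the main population alone, the main population without each of its clusters in turn, and its shared clusters at equal weight). The ratio of Per2 stayed above 1 under all 32 alternatives that gave it 10 UMIs, from 1.24 in cluster 9 to 6.88 in cluster 3. Arntl, from 1.46 to 2.88, and Cry1, from 1.61 to 3.61, stayed above 1 under all 28 each. Nr1d1 ranged from 0.672 in cluster 5 to 4.20 without cluster 3. Single clusters and barcodes outside the main population hold few UMIs, and calls are fewer there by construction. Other causes were not tested. Shares over all genes are given above for the main population, outside it, for single clusters, at other UMI minima, under TMM and without cluster 4. They were not computed for the other settings, where a change in a count below cannot be told from a change over all genes.

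Of the members, 4 were called higher at a fold of 2 and 4 with the interval wholly beyond 1.5-fold, 3 outside the main population, 2 at 1% or more mitochondrial UMIs, 2 in clusters 9 and 11 each, 1 in clusters 2 and 3 each and with shared clusters at equal weight, and 0 in clusters 5 and 10. Called lower were 1 outside the main population, 1 in cluster 9 and 2 in cluster 5. Reversed ratios were, for Clock, 0.543 in cluster 5, 0.629 in cluster 9 and 0.825 in cluster 10. Per1 gave 0.912 in cluster 2 and 0.888 in cluster 5. Nr1d1 gave 0.914 in cluster 3, 0.672 in cluster 5, 0.760 without cluster 4 and 0.964 with shared clusters at equal weight. Dbp gave 0.753 outside the main population, 0.397 in cluster 3, 0.921 without cluster 4 and 0.811 at equal weight. Among pairs, the ratio of ratios of Arntl to Per2 was 1.11 outside the main population, that of Dbp to Tef was 0.700 there, 0.335 in cluster 3 and 0.876 without cluster 4, and that of Per1 to Per2 was 1.98 in cluster 9. Arntl over Nr1d1, at 1.04 over all barcodes, ranged from 0.454 without cluster 1 to 3.40 without cluster 4.

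Of the wider clock list, called higher were 0 at a fold of 2, in clusters 3, 9, 10 and 11 and at equal weight, 2 in the main population, outside it, at 1% or more mitochondrial UMIs and without cluster 2 or 5, 3 at resolutions of 0.5 and 2.0, without EGFP barcodes and without cluster 7, and 4 without cluster 4. Called lower were 0 at a fold of 2, with the interval beyond 1.5-fold, at resolution 2.0 and in clusters 2, 3, 9, 10 and 11, 2 by median of ratios, with barcodes weighted equally, at 1% or more mitochondrial UMIs and without cluster 3, 4, 6 or 13, 3 without cluster 1 and at equal weight, and 4 under TMM and in cluster 5. Of the output list, called higher were 0 outside the main population and in clusters 5, 9 and 10, 1 at 1% or more mitochondrial UMIs and in clusters 2 and 3, 2 at a fold of 2, with the interval beyond 1.5-fold, in cluster 11, without cluster 4 and at equal weight, and 3 under TMM, without EGFP barcodes and without cluster 2. Called lower were 0 at a fold of 2, with the interval beyond 1.5-fold, outside the main population, without EGFP barcodes and in clusters 3 and 10, 2 in the main population, at resolution 2.0, in clusters 5 and 11 and without cluster 1, 2, 6 or 8, and 3 under TMM and by median of ratios.

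Of the glucocorticoid-responsive list, called higher were 0 under TMM, at a fold of 2, with the interval beyond 1.5-fold and in clusters 3 and 10, 2 over all deposited barcodes, with doublets kept, with barcodes weighted equally, at resolution 2.0, without EGFP barcodes, without barcodes lacking mitochondrial UMIs and without cluster 2, 4, 6 or 7, and 3 at 1% or more mitochondrial UMIs and without cluster 1 or 3. Called lower were 0 outside the main population and in cluster 10, 1 at a fold of 2 and in clusters 2, 9 and 11, and 4 in cluster 5 and without cluster 4. Of the temperature-responsive list, called higher were 0 outside the main population and in clusters 3, 9 and 10, 1 in clusters 2, 5 and 11, without cluster 4 and at equal weight, and 3 at 1% or more mitochondrial UMIs. Called lower were 1 without EGFP barcodes, at 1% or more mitochondrial UMIs and in clusters 3 and 11, 3 outside the main population, and 4 in cluster 10 and without cluster 4.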

Other observations

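Within the main population, 547 barcodes of the shBicd2-labelled library and 380 of the scramble-labelled library had at least 1% mitochondrial UMIs. Nr1d2, the REV-ERB beta gene, was lower in those than in the remaining barcodes of the same library, with ratios of 0.505 (0.405 to 0.622) and 0.557 (0.434 to 0.704). Clock was lower too, at 0.667 (0.477 to 0.912) and 0.558 (0.314 to 0.927). Nr1d1 was at 0.557 (0.485 to 0.638) in the shBicd2-labelled library and 0.900 (0.737 to 1.09) in the scramble-labelled library. Per2 gave 0.736 (0.549 to 0.971) and 0.773 (0.343 to 1.53), and Per1 gave 0.850 (0.741 to 0.972) and 0.900 (0.734 to 1.09).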
